A study of Mus musculus with 4 samples.

Results

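The genes of translation initiation, elongation and termination factors were followed through m6A profiles of mouse bone-marrow-derived macrophages labelled as wild type (WT) or knockout (KO) for Mettl3, the catalytic subunit of the complex that writes N6-methyladenosine (m6A) on messenger RNA. Members were chosen by gene name: names of eIF1 to eIF6, of eEF1 and eEF2, of the release factor genes Etf1, Gspt1 and Gspt2, and of related names with the same stems, without the eIF2 kinases. This gave 53 genes of the 13067 named in any list, among them 4 pseudogenes and 4 genes that are not factors themselves (3 methyltransferase genes, Eef1akmt1, Eef1aknmt and Eef2kmt, and Eif1ad). The members held 58 of 16709 peaks in the WT list, 84 of 21031 in the KO list and 35 of 6050 in the table of differences.

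All cells were from C57BL/6 mice and were cultured for 7 days with macrophage colony-stimulating factor. The WT cells had the genotype Mettl3fl/fl and the KO cells the genotype LysM-cre, Mettl3fl/fl, so both carried floxed alleles and only the KO cells carried Cre, which the lysozyme 2 gene drives in myeloid cells. Each genotype gave 1 immunoprecipitated (IP) and 1 input library, 4 in all, so no value has a replicate and no difference between genotypes was tested here. The labels do not say whether animals were pooled.

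Translation starts when eIF4 factors open the capped end of a messenger RNA and eIF3 and eIF2 bring the small ribosomal subunit with the initiator tRNA. eIF1, eIF1A, eIF5 and eIF5B then set the start codon and join the large subunit, eEF1 and eEF2 drive elongation, and eRF1 and eRF3 release the chain. m6A usually lies near stop codons and in 3′ UTRs, eIF3 has been reported to bind m6A in 5′ UTRs, and many transcripts of the translation machinery are abundant and themselves under translational control.

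The files used hold no read totals, so the depth of the libraries is unknown. Mettl3 had 0 peaks in the WT list, 1 in the KO list and 0 in the table of differences, so its input level was not analysed here and could not check the genotypes. Input levels are listed only for genes with a differential peak, which included 4 of 7 macrophage markers, among them Cd68 at 1029 FPKM (fragments per kilobase of transcript, scaled to library size) in WT and 994 in KO. Lyz2, the gene that drives the Cre, had 10533 FPKM in WT against 6615 in KO, Adgre1 246.7 against 269.3 and Fcgr1 40.6 against 58.4. So 2 of the 4 were higher and 2 lower in KO, and their sum, 11850 and 7937 FPKM, is mostly Lyz2. Of the neutrophil markers 2 of 5 had a level, summing to 233 FPKM in WT and 137 in KO. Itgax, the 1 of 3 dendritic cell markers with a level, had 71.9 FPKM in WT against 46.7 in KO, and no marker of B, T or stromal cells had one. Their part in the results below was not tested.

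The first question was which translation factor transcripts carried peaks of the m6A IP in each genotype. A listed peak is an enrichment of IP over input, and whether the peaks of the KO list mark m6A was not tested. By assigned name, peaks were found in both lists for 36 members, in the WT list alone for 4 and in the KO list alone for 13. These shares, 67.9%, 7.55% and 24.5%, lay near those of all 13067 genes, 65.2%, 10.4% and 24.2%. Counting only peaks within the assigned gene, 37 members had a WT peak and 45 a KO peak. This drops Eif3j1, Eif3k and Eef2-ps2 from the WT list and Eif4a1 and Eif1ax from the KO list. Eef1a1 and Eif6, named in the KO list alone, had no listed peak within the gene. Of the 70 protein-coding genes of the RefSeq table that match the rule, 21 had no peak assigned. They included the core eIF3 subunit genes Eif3b, Eif3c and Eif3m, the helicase gene Eif4a2 and the translational repressors Eif4ebp1 and Eif4ebp2. Eef2, which moves the ribosome along the message, was another. Input levels are listed only for genes with a differential peak, so whether these genes were expressed is unknown here. The same share over all protein-coding genes was not counted. Each list gives a fold enrichment of IP over input, which is the authors' own value. It was ranked only within its list, and where folds of both genotypes stand side by side they are a description. Member peaks had lower folds than the list as a whole in both genotypes: their median fold was 2.47 (95% order-statistic interval 2.09 to 2.96) against 3.74 over the whole WT list, and 2.44 (2.13 to 2.70) against 3.15 over the whole KO list. These intervals cover only the spread among peaks, and peaks of 1 gene are not independent.

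Among the 5 highest member folds of the WT list, 4 lay in the gene they are named for. The highest fold was 17.3, in the 3′ UTR of Eif2d, whose product can load and recycle ribosomes without belonging to the eIF2 complex. That peak also lay in the extent of Rassf5, so it may belong to either gene. Eif2b2, a regulatory subunit of the eIF2B exchange factor, followed at 14.3, and Gspt2, the X-linked eRF3 gene, at 14.1. A peak at 13.6 was assigned to Eef1g but lay in the neighbouring Tut1, so it does not describe Eef1g. Eif1a, a factor of start codon scanning, closed the 5 at 12.2. In the KO list the order differed, with Eif3j1 at 30.7, the eIF2α gene Eif2s1 at 13.0, Eif2d and Eif6 at 9.45 each and Gspt2 at 9.11. The 9.45-fold peaks of Eif2d and Eif6 both had a false discovery rate of 0.218. The Eif2d peak also lay in the extent of Rassf5, and the Eif6 peak lay in Fam83c. Ranks from lists of different lengths show no change between genotypes.

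**Figure D1:**
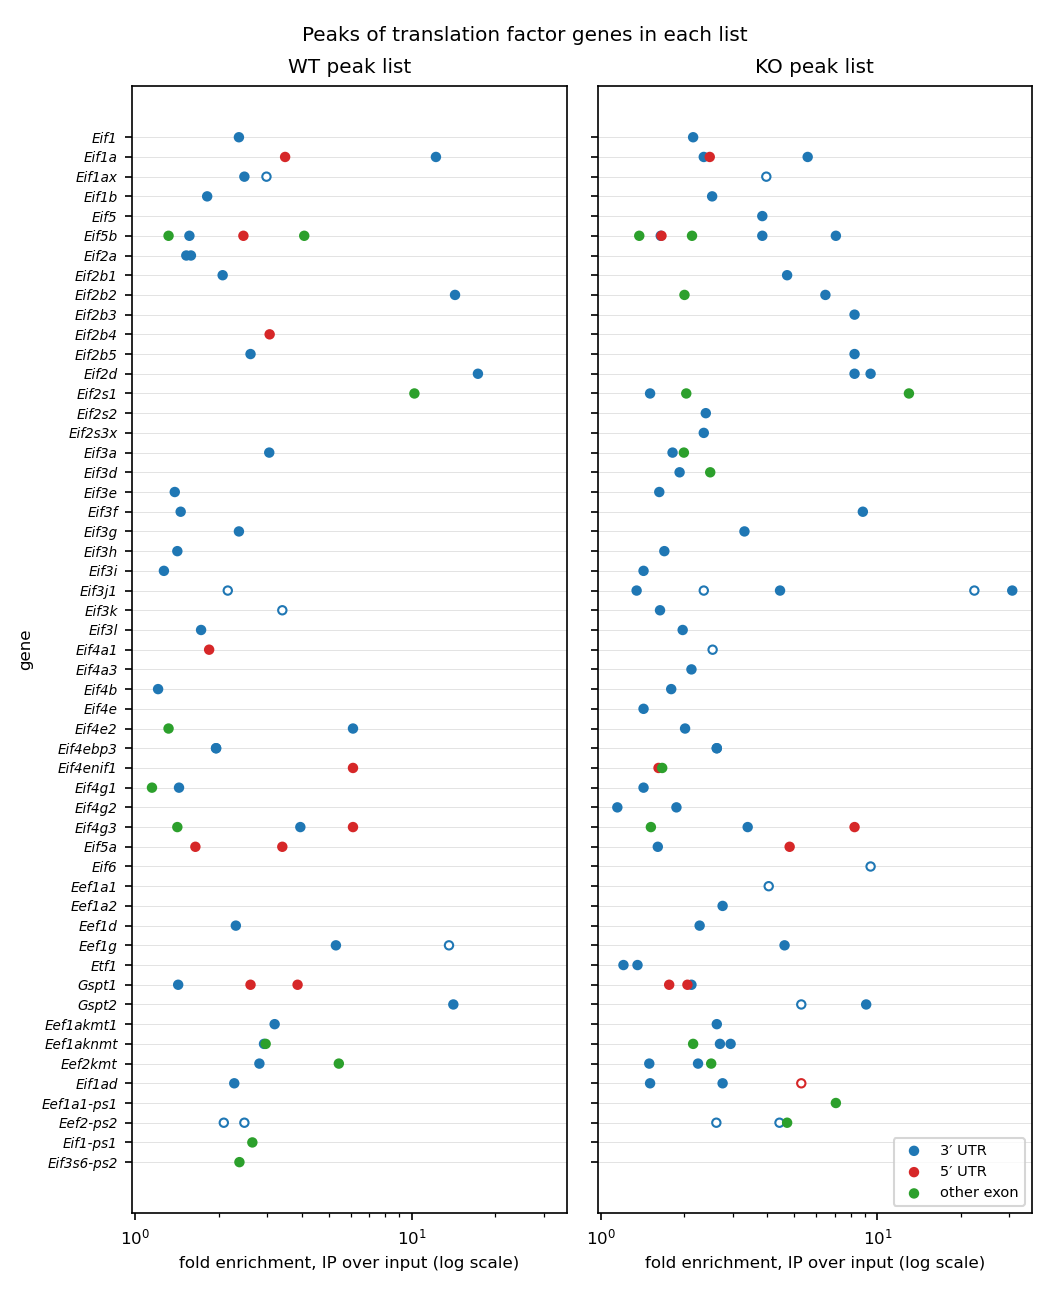
Fold enrichment of IP over input (log scale) of each member peak in the WT list (left) and the KO list (right), 1 point per peak, coloured by transcript region, genes ordered by role; open points lie outside the extent of the assigned gene. Most points sit at low folds, with medians of 2.47 in WT and 2.44 in KO, and Eif3j1 reaches 30.7 in KO.

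Most member peaks were annotated to 3′ UTRs, 38 of 58 in WT (65.5%, exact binomial interval 51.9 to 77.5) and 63 of 84 in KO (75.0%, 64.4 to 83.8). Over the whole lists the shares were 59.6% and 64.1%. The 5′ UTR held 10 WT and 8 KO member peaks. Of the member WT peaks, 46 of 58 (79.3%, 66.6 to 88.8) overlapped a KO peak by 1 exonic base or more, close to the 73.4% of all WT peaks that did. Of the KO peaks of members, 49 of 84 (58.3%, 47.1 to 69.0) shared a base with a WT peak, against 61.6% of the whole KO list. These binomial intervals cover counting error only.

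Of the 13 genes with peaks in the KO list alone, the 4 described here were chosen after their values were seen, as central factors. Eif4e, which binds the cap, had 1 KO peak at 1.43-fold with a false discovery rate of 0.0398. Eif4g2, a scaffold protein related to eIF4G that does not bind eIF4E, had a KO peak at 1.88-fold and another at 1.15-fold, the latter with a false discovery rate of 0.208. Etf1, the gene of eRF1, had peaks at 1.36-fold and 1.21-fold, each with a rate above 0.05, and Eif5, whose product triggers GTP hydrolysis on eIF2, had one at 3.84-fold with a rate of 0.0692. The pseudogene Eef1a1-ps1 is a near copy of Eef1a1, so reads could be split between both and its KO peak is uncertain. The members of the WT list alone were Eif2a, which can deliver initiator tRNA outside the eIF2 complex, the eIF2B subunit gene Eif2b4, and the pseudogenes Eif1-ps1 and Eif3s6-ps2.

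Several 5′ UTR peaks reached the RefSeq windows around transcript starts, where the reference sequence could be read. For 5 members with such an overlap (Eif1a was not searched), the letters GGACT and GAACT, common forms of the m6A consensus, were searched on the transcript strand of the RefSeq promoter windows (250 bases before to 50 after the start, GRCm38.p6) within the peak. GAACT was found in Gspt1, the eRF3 gene that cooperates with eRF1 at stop codons, and GGACT at 2 places in Eif4enif1, whose product carries eIF4E into the nucleus. The stretches are shown because they lie inside peaks of both genotypes. They are written 5′ to 3′, and capitals mark the motif.
Gspt1, chr16:11254296-11254325, minus strand: ggGAACTaccgaggcgaaggtacgggtggt
Eif4enif1, chr11:3202820-3202849, plus strand: gcctgcgtgcgaGGACTgcgcgctaccccg
Eif4enif1, chr11:3202944-3202973, plus strand: cggccgacctgtGGACTtggtccctgctcc
The Gspt1 stretch is the first 30 bases of a RefSeq transcript. Of all 32851 windows, 26.1% held GGACT on the transcript strand and 24.8% held GAACT (45.5% and 43.5% on either strand). Within the first 50 transcribed bases, where the Gspt1 match lies, the shares were 5.76% and 4.40%, so a match is a description and not a site. The motifs do not overlap each other, and no match elsewhere says only that these letters are not in that window. The Eif4enif1 peak around both of its stretches stood at 6.12-fold in the WT list and at 1.62-fold in the KO list, where its false discovery rate was 0.207. It also lay in the extent of Sfi1, and strand was not used to place peaks in genes here.

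The second question was how enrichment at single peaks differed between the genotypes. The authors' deposited table gives, for peaks whose p is under 0.05, how far KO enrichment lies from WT enrichment as a log2 ratio; that p sets single libraries against each other and has no replicates behind it. Translation factor genes went against the direction of the table as a whole. Of the 35 member peaks, 12 (34.3%, exact binomial interval 19.1 to 52.2) were lower in KO and 23 higher per the authors' deposited table, where 69.6% of all 6050 listed peaks were lower. The median log2 ratio of the member peaks was 0.49 (95% order-statistic interval -0.13 to 0.67), against -0.40 over the authors' deposited table. Set against that median, 7 member peaks were lower and 28 higher. By gene, 18 members had only higher peaks, 7 only lower ones and 3 both. Among genes averaging at least 1 FPKM, 17 members had only higher peaks and 7 only lower ones. Of all 3679 such genes, 1046 had only higher peaks and 2349 only lower ones. At a false discovery rate under 0.05, which 79.6% of the authors' deposited table met, 29 of the 35 member peaks were left. The 6 above that rate belonged to Eif1ad, Eif4a3, Eif4g1, Eif4g3 and, with 2 peaks, Eif4ebp3. Peaks that overlap each other were listed for Gspt1 and for Eif4ebp3, so the 35 peaks mark 33 separate places.

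**Figure D2:**
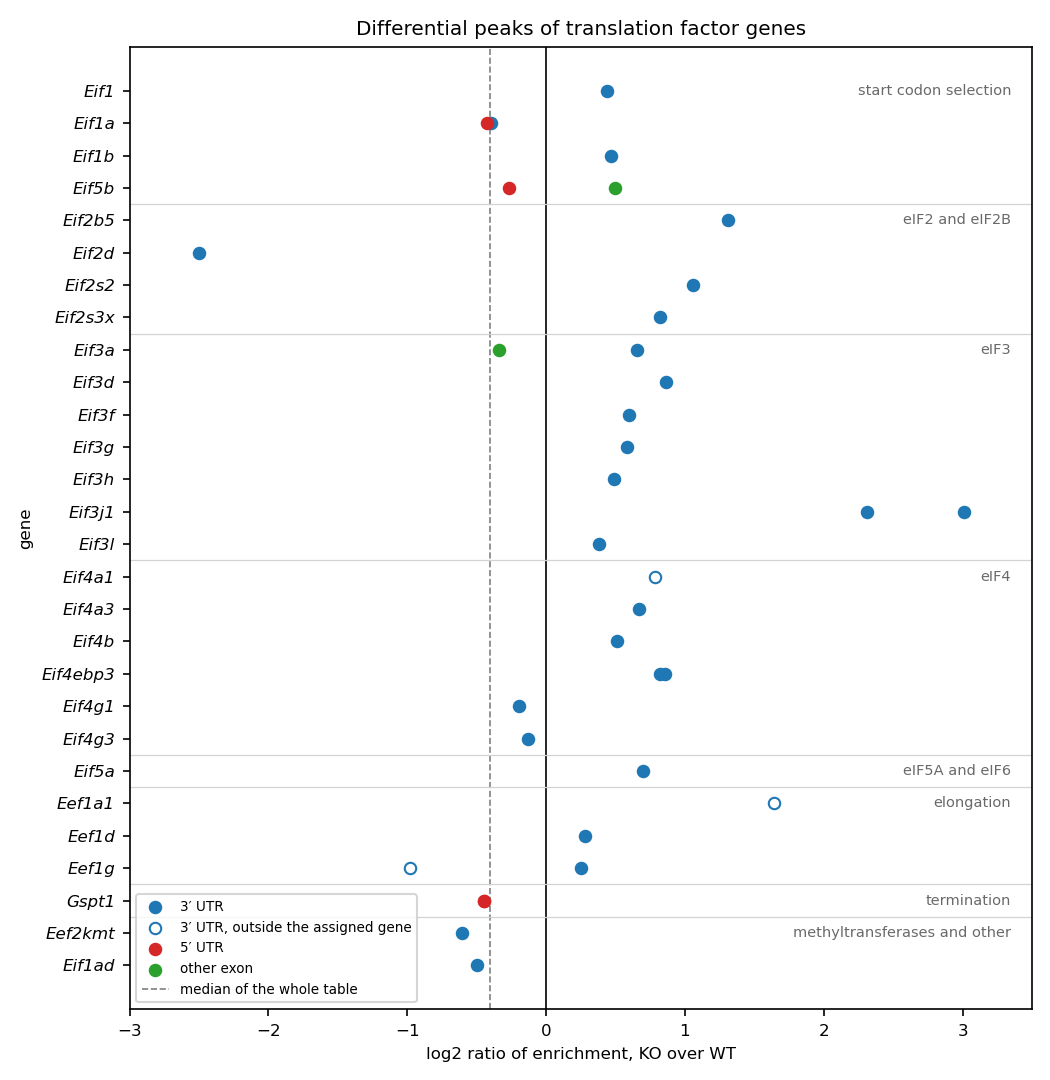
Log2 ratio of KO over WT enrichment per the authors' deposited table (x axis) for each of the 35 member peaks, by gene and role, coloured by transcript region; open points lie outside the assigned gene and the dashed line is the median of the whole table, -0.40. The eIF3 and eIF2 genes lie mostly to the right of 0, and all 5′ UTR points lie to its left.

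Subunits of eIF3, the scaffold that holds the small ribosomal subunit, lay mostly on the higher side, with 8 higher peaks and 1 lower in 7 genes per the authors' deposited table. The largest ratios of all members were the 2 of Eif3j1, a loosely bound subunit: 3.01 (8.06-fold) on chromosome 2 from 122052114 to 122052204 and 2.31 (4.96-fold) from 122052951 to 122053220 (build mm10), both in its 3′ UTR, per the authors' deposited table. No WT peak overlapped either of them, and the KO peaks there stood at 4.45-fold and 30.7-fold. The only WT peak assigned to Eif3j1 lay in Ctdspl2. Further KO peaks named for Eif3j1 lay just beyond it in Spg11, from 122053758 on. They stood at 22.4-fold and 2.36-fold, the latter with a false discovery rate of 0.223. The other 3′ UTR ratios per the authors' deposited table were 0.86 for Eif3d, the subunit that can bind a cap, 0.65 for the core subunit Eif3a, 0.60 for Eif3f, 0.58 for Eif3g, 0.49 for Eif3h and 0.38 for Eif3l. Of the 8 higher eIF3 peaks, 6 were short 3′ UTR peaks (at most 400 exonic bases) of genes averaging 10 FPKM or more, a class chosen with the values in view in which 85.8% of all 906 peaks were higher and 14.2% lower per the authors' deposited table. The eIF3 genes Eif3e, Eif3i and Eif3k had listed peaks and no differential one. Eif3a also had a lower peak: this one ran over 1465 exonic bases, at -0.34 with a false discovery rate of 3.16e-31 per the authors' deposited table, and the WT and KO peaks there stood at 3.05-fold and 2.00-fold. At Eif3f the WT peak stood at 1.46-fold and the KO peak at 8.86-fold, and at Eif3h they stood at 1.42-fold and 1.70-fold.

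The eIF2 complex, which carries initiator tRNA, and its exchange factor eIF2B, which reloads it with GTP, had 3 higher peaks and 0 lower per the authors' deposited table. Those of Eif2b5 and Eif2s3x were short 3′ UTR peaks of genes averaging 10 FPKM or more. In that class 85.8% of all 906 peaks were higher. The Eif2s2 peak was a 3′ UTR peak of 180 exonic bases in a gene averaging 9.27 FPKM, just under that level. Eif2b5, the catalytic subunit of eIF2B, had a ratio of 1.31 (2.48-fold) at the end of its transcript, in the 3′ UTR (chromosome 16, 20509084 to 20509323), with a false discovery rate of 0.000166, per the authors' deposited table. Its peak stood at 2.61-fold in the WT list and at 8.27-fold in the KO list. Eif2s2, the β subunit, was at 1.06 with a rate of 2.45e-07, and Eif2s3x, the X-linked γ subunit, at 0.82 per the authors' deposited table. Neither of these had a WT peak, and their KO peaks stood at 2.40-fold and 2.36-fold. Eif2d, which belongs to neither complex, lay at -2.50 (0.177 of the WT enrichment) with a rate of 0.00955 per the authors' deposited table, the lowest ratio of any member. Its transcript was the least abundant factor transcript of at least 1 FPKM, at 1.61 FPKM in WT and 1.36 in KO, and the peak also lay in the extent of Rassf5, so it may belong to either gene.

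Factors that select the start codon divided evenly, with 3 lower and 3 higher peaks per the authors' deposited table. Eif1 and Eif1b, which encode similar guardians of start codon choice, had 3′ UTR ratios of 0.44 and 0.47 per the authors' deposited table. Eif1a went the other way at both ends of its transcript, with -0.43 in its 5′ UTR and -0.40 over a 3′ UTR peak of 1500 exonic bases per the authors' deposited table. The WT and KO folds of Eif1a were 3.48 and 2.48 in the 5′ UTR and 12.2 and 5.60 in the 3′ UTR. Eif5b, the GTPase that joins the ribosomal subunits, had a lower peak at -0.27 that began in its 5′ UTR and a higher one at 0.50 over 211 exonic bases outside the UTRs per the authors' deposited table.

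The eIF4 group, named for factors that recognize and unwind the capped end, had 5 higher peaks and 2 lower per the authors' deposited table. Only the peaks of Eif4b and Eif4a1 had a false discovery rate under 0.05 (0.00631 and 0.00115). The others had rates of 0.0562 (Eif4g1), 0.0741 (Eif4g3), 0.055 (Eif4a3), and 0.0617 and 0.0891 (Eif4ebp3). The 2 lower ones were those of the scaffold genes Eif4g1 (-0.20) and Eif4g3 (-0.13), the lower ratios closest to 0 among the members per the authors' deposited table. Higher ratios belonged to Eif4b, a helper of the eIF4A helicase, at 0.51, to Eif4a3, the helicase of the exon junction complex, at 0.67, and to Eif4ebp3, an eIF4E-binding repressor, at 0.82 and 0.86 per the authors' deposited table. The peaks at 0.82 and 0.86 overlap each other, and Eif4ebp3 had the lowest input of any member with a level, 0.176 FPKM in WT and 0.148 in KO. A further ratio, 0.79, is assigned to the helicase gene Eif4a1 per the authors' deposited table but lay in Senp3. Eif5a, whose hypusine-bearing product helps ribosomes past difficult stretches, had a 3′ UTR ratio of 0.70 with a false discovery rate of 3.98e-13 per the authors' deposited table; that peak also lay in the extent of Gps2.

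Among elongation factors, the peaks that reached the genes themselves had only small higher ratios. Eef1d and Eef1g, subunits of the exchange complex that recharges eEF1A, stood at 0.28 and 0.25 per the authors' deposited table. This Eef1g peak, of 449 exonic bases, extended past the RefSeq gene end (distance to that end -239 bases), so most of it lay outside. A ratio of -0.98 assigned to Eef1g lay in Tut1, and one of 1.64 assigned to Eef1a1 lay in Slc17a5, per the authors' deposited table. No differential peak was listed within Eef1a1, the most abundant of the members with a level. The release factor gene Gspt1 had 2 overlapping lower peaks in its 5′ UTR, at -0.45 each per the authors' deposited table, and the longer of them held the 30 bases printed above. Over this region the WT folds were 3.86 and 2.61 and the KO folds 2.06 and 1.77. Of the genes that are not factors, Eef2kmt, which methylates eEF2, was at -0.60 and Eif1ad at -0.50 per the authors' deposited table, and the former peak also lay in the extent of Alg1.

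Direction went with the transcript region and with peak length. All 4 differential 5′ UTR peaks, of which the 2 of Gspt1 overlap each other, were lower. So were 88.7% of those in the whole of the authors' deposited table. In 3′ UTRs 7 of 29 member peaks (24.1%, 10.3 to 43.5) were lower, against 63.2% of 4382 per the authors' deposited table. Higher member peaks were short, with a median exonic length of 180 bases and a range of 91 to 449, whereas lower ones had a median of 360 and a range of 238 to 1500. The whole table showed the same difference, with medians of 209 and 804 bases. Of 7 member peaks over 400 exonic bases, 5 were lower, against 94.8% of 3382 per the authors' deposited table; the 2 that were higher were those of Eef1d and Eef1g.

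**Figure D3:**
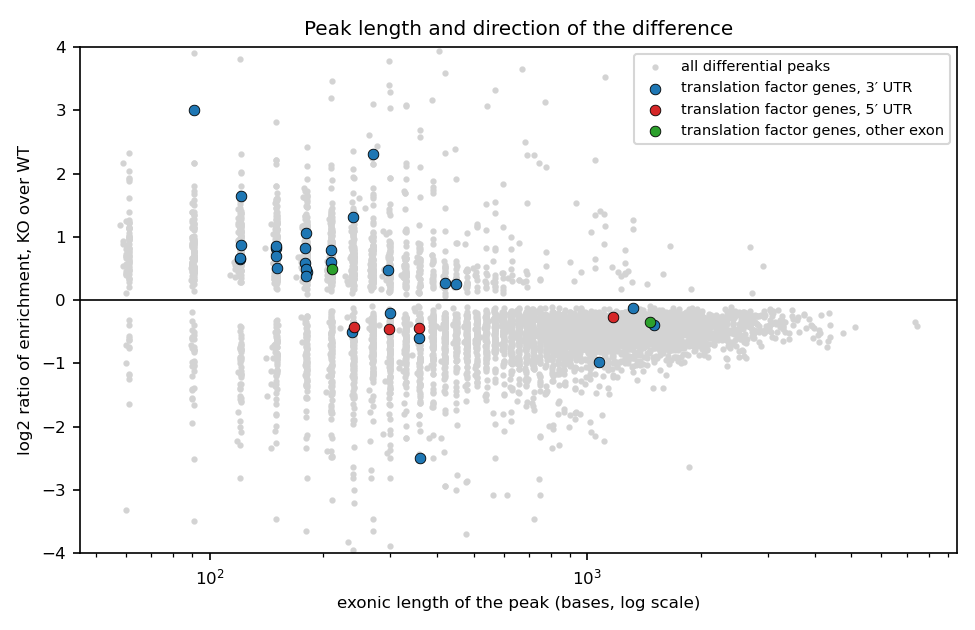
Exonic length of each differential peak (log scale) against its log2 ratio of KO over WT per the authors' deposited table, all peaks in grey and member peaks in colour by transcript region; 26 peaks beyond 4 in absolute ratio are not drawn. Higher member peaks lie between 91 and 449 bases, and the longest ones, near 1500 bases, lie below 0.

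Many higher peaks lay at the very end of their gene. Of the 20 higher 3′ UTR peaks within their gene, 10 ended within 10 bases of the RefSeq gene end: those of Eif1, Eif1b, Eif2b5, Eif2s3x, Eif3g, Eif3h, Eif3l, Eif4a3, Eif4b and Eif5a. Of the 6 lower ones 0 did, but that of Eif4g3 ended 13 bases past the gene end, so within 20 bases the counts were 10 of 20 and 1 of 6. In the authors' deposited table as a whole the shares were 44.2% of 1125 higher and 13.1% of 2129 lower 3′ UTR peaks, so in both sets an end position was more frequent among higher peaks. All 12 lower member peaks overlapped both a WT and a KO peak. Of the higher ones 23 of 23 overlapped a KO peak and 13 (56.5%, 34.5 to 76.8) a WT peak. Over the whole of the authors' deposited table, 100% of lower peaks overlapped a WT peak and 92.7% a KO peak, and 100% of higher peaks overlapped a KO peak and 64.7% a WT peak, so the member shares lay near these. At Eif1, Eef1d and Eef1g, where the ratio was above 0 per the authors' deposited table, the folds listed for KO were not higher: the WT and KO folds were 2.37 and 2.16, 2.31 and 2.28, and 5.31 and 4.62.

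Abundant transcripts with short 3′ UTR peaks held 16 of the 35 member peaks, against 906 of all 6050 in the authors' deposited table. These were 3′ UTR peaks of at most 400 exonic bases in genes whose input averaged 10 FPKM or more. The class was chosen after the values were seen. In this class 1 of 16 (6.25%, 0.158 to 30.2) was lower, that of Eif4g1. Of the 906 peaks of this class in the whole of the authors' deposited table, 14.2% were lower, so the member share lay near that of other abundant genes. Among the remaining peaks 11 of 19 members (57.9%, 33.5 to 79.7) were lower, against 79.4% of the rest of the authors' deposited table. The peaks assigned to Eef1a1 and Eif4a1 enter this class with the level of a gene they do not lie in, and 1 of 14 was lower without them.

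**Figure D4:**
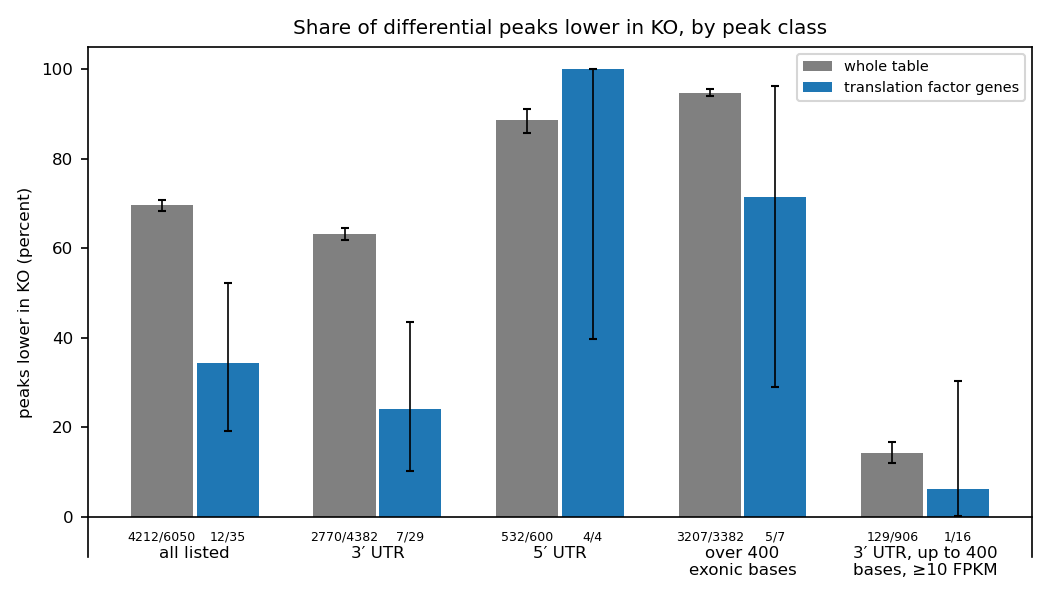
Percent of differential peaks that lay below 0 per the authors' deposited table, for the whole table (grey) and for translation factor genes (blue), over all listed peaks and in 4 classes; error bars are 95% exact binomial intervals and the counts stand under the bars. Members lie at 34.3% against 69.6% over all peaks, and both are low, 6.25% and 14.2%, among short 3′ UTR peaks of abundant genes.

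The third question was whether transcript levels differed in the input libraries. The differences were small. The most abundant member was Eef1a1, at 2215 FPKM in WT and 2237 in KO, far above the rest. Eif4a1 stood at 116 and 104 FPKM, Eif5a at 111 and 100.4, Eif4b at 94.3 and 88.7 and Eif3h at 93.7 and 92.4. Over the 27 members with a mean of at least 1 FPKM, the difference of log2(FPKM + 1), KO minus WT, ran from -0.16 to 0.20 with a median of -0.04 (95% order-statistic interval -0.09 to 0.04). It was below 0 for 17 of 27 members (63.0%, 42.4 to 80.6), whereas 31.0% of the 3679 listed genes were lower in KO and their median was 0.07. Set against that median, 21 of 27 members were lower. The authors' deposited table gives a p under 0.05 for the input difference of 0 members, against 0.381% of listed genes, with member p-values of 0.635 to 0.980 and an adjusted p of 1 for every member.

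The lowest differences of log2(FPKM + 1) were -0.16 for Eif4a1, -0.14 each for Eif5a, Eif2d and Eif2s2 and -0.13 for Eif4a3. At the other end stood Eif4g3 with 0.20 (15.9 FPKM in WT and 18.4 in KO), Eif1ad with 0.19 (4.94 and 5.76), Eif1a with 0.17 (20.2 and 22.8), Gspt1 with 0.12 (13.0 and 14.3) and Eif3a with 0.11 (39.6 and 42.9). The 5 upper genes all had a lower peak in KO (Eif3a had a higher one too), and 4 of the 5 lower genes had a higher peak, Eif2d being the exception; the peak of Eif4a1 lay in Senp3. Counting the members with 1 direction of peak, 16 of 17 with only higher peaks had a lower input in KO (median log2 difference -0.08) and 1 of 7 with only lower peaks did (median 0.12). Counting only peaks within the assigned gene, which drops Eif4a1 and Eef1a1 and adds Eef1g, the numbers were 15 of 16 and 1 of 7. Among all listed genes the shares were 49.7% of 1046 and 22.6% of 2349. The log2 differences of the 17 members ran from -0.16 to 0.01, with Eif1b at -0.0006, and those of the 7 from -0.14 to 0.20. The peak ratio is itself computed against these input libraries, and what part that plays was not tested.

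**Figure D5:**
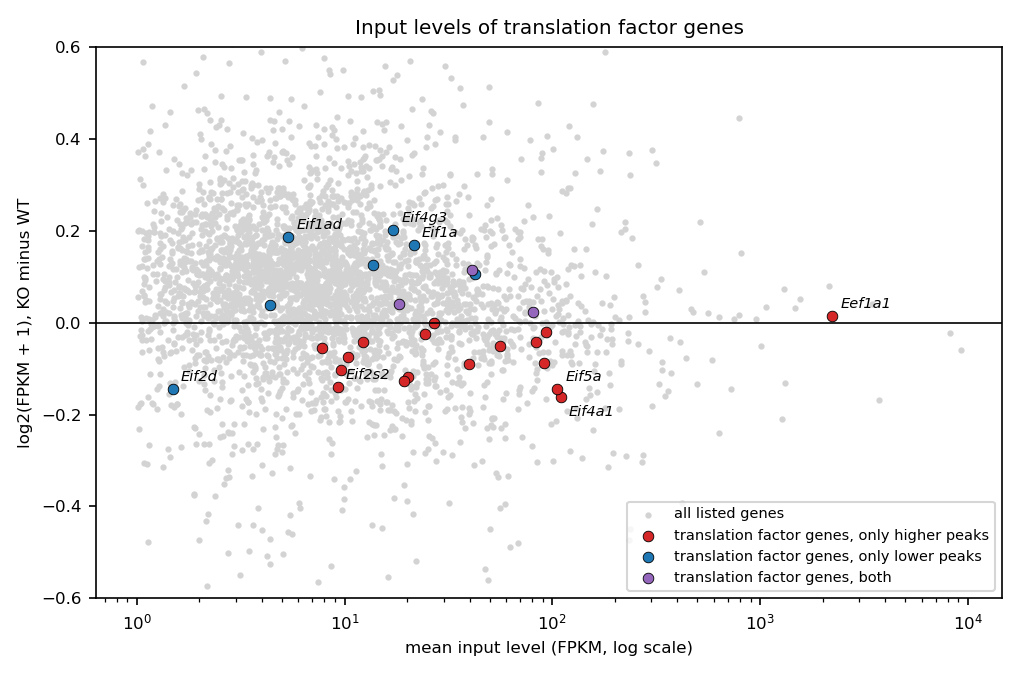
Mean input level (FPKM, log scale) against the difference of log2(FPKM + 1), KO minus WT, for all listed genes of at least 1 FPKM (grey) and for the 27 members, coloured by the direction of their differential peaks; the y axis is limited to ±0.6. Members with only higher peaks lie at or under 0, except Eef1a1, and 6 of the 7 with only lower peaks lie above it.

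Partners of these factors outside the naming rule showed about the share of lower peaks of the whole table. Of 26 such genes, 18 had a WT peak, 18 a KO peak and 9 a differential one, with 8 peaks lower (72.7%, 39.0 to 94.0) and 3 higher, against 69.6% lower over the whole of the authors' deposited table. Mknk1, a kinase that phosphorylates eIF4E, stood at -0.89, Larp1, which holds back transcripts of the translation machinery, at -0.44, and the eIF2 kinase gene Eif2ak3 at -0.53 and -0.35 per the authors' deposited table. The poly(A)-binding protein genes Pabpc1 and Pabpc4 were higher, at 0.68 and 0.85 per the authors' deposited table. Ppp1r15a, which directs dephosphorylation of eIF2α, had 1 peak each way, 1.09 in its 3′ UTR and -0.60 in an exon, per the authors' deposited table; the former had a false discovery rate of 0.0575, and those of Hbs1l, Mknk2, Pdcd4 and the Eif2ak3 peak at -0.35 were above 0.05 too. The 3 higher partner peaks were 3′ UTR peaks of 121 to 210 exonic bases, and the 8 lower ones had 180 to 2187. The difference between partners and factors, and the part of peak length in it, was not tested.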

How the data were processed

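m6A-seq, the sequencing of RNA fragments pulled down with an antibody to m6A, was compared between WT and KO macrophages, with 1 IP and 1 input library of each; groups were taken from the labels. Per the submitters' processing notes, fastp, HISAT2, HOMER, ChIPseeker, StringTie, edgeR and the build mm10 were used; which step each served and the peak caller are not given in the sources used here. Per the file headers, the deposited peak lists give a fold (a ratio of IP over input), a p-value and a log10 false discovery rate for each peak. The deposited log10 rates are a score of the authors' own making and were turned back into rates. The authors' deposited table of differences gives a log2 ratio, its p-value and its log10 rate, for peaks of p under 0.05, and a second table gives the authors' FPKM and input p-value for genes with such a peak. Depth is unknown, so counting error of single peaks could not be given.

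Members and lists were chosen with earlier results of these data known. Genes were matched by name, and each peak was checked against the RefSeq extent of its gene (GRCm38.p6, the assembly of mm10). A peak counted as within its gene if it shared at least 1 base with that extent. Peaks were compared on their exonic blocks (at least 1 shared base, strand ignored), and printed starts count from 1. Input differences used log2(FPKM + 1) in genes averaging 1 FPKM or more. Intervals are 95% exact binomial (Clopper-Pearson) for shares and order-statistic for medians. No test between genotypes was run. The text names every member with a differential peak, the 5 highest folds in each list, and the 5 highest levels and 5 largest input differences each way; other names were picked with their values in view. Alternatives covered peak thresholds, overlap, peaks within the gene, 1 value per gene, centring, pseudocount and level filter; others were added after the data were seen (overlapping peaks counted once, no non-factor names, the class of short 3′ UTR peaks, ends within 20 bases, and input by peaks within the gene). The overlap step was tested on simulated data, and the naming rule on made-up names. Python 3.11.15, pandas 2.3.3, numpy 2.4.6 and scipy 1.17.1 were used.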

Additional observations from a re-analysis of the deposited data

How the results depend on the processing

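Of 41 alternative values over 9 results, 27 stayed within the 95% interval of the reported value (for counts, within 1.5 times), 14 moved and 0 reversed. Inside their wide intervals, the percent lower still went from 34.3% to 20% relative to the table median, and the median input difference from -0.0414 to -0.0242 at a mean of at least 10 FPKM. Stricter peak thresholds left fewer members: at a fold of at least 4 the WT list kept 12 peaks in 11 genes and the KO list 24 peaks in 19 genes, and at a peak p of at most 1e-10 they kept 12 peaks in 9 genes and 22 peaks in 21 genes. With a reciprocal overlap of 50%, 56.9% of member WT peaks met a KO peak. In the authors' deposited table, 16.7% of the member peaks with an absolute log2 ratio of at least 1 were lower, with a median of 1.475 over 6 peaks. Among short 3′ UTR peaks of genes of at least 10 FPKM, a class chosen after seeing the data, 6.25% were lower. The remaining 19 member peaks were not among the 41 alternative values, and their median lay on the other side of 0. Of these, 57.9% were lower, with a median log2 ratio of -0.268 (order-statistic interval -0.45 to 0.823). Differential member peaks with a peak p of at most 1e-10 were not among those values either. There 45% of 20 were lower and the median was 0.266 (-0.338 to 0.49). Relative to the median of the authors' deposited table the member median was 0.892, and relative to all listed genes the median input log2 difference was -0.1131. Fewer peaks tested, or the shift of the centre, are part of how these settings are built. No paired analysis was possible because each group had 1 library and the labels carry no replicate numbers, and for the same reason no library could be left out.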

Other observations

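Some peaks carry the name of a translation factor and lie in another gene. This held for 6 of 58 WT peaks, 9 of 84 KO peaks and 3 of 35 differential peaks of members. Besides those in Tut1, Senp3, Slc17a5, Ctdspl2 and Fam83c, KO peaks of 22.4-fold and 2.36-fold named for Eif3j1 lay in Spg11, and peaks named for Eif1ax, an X-linked gene of the scanning factor eIF1A, lay in Rps6ka3 at 2.98-fold in WT and 3.97-fold in KO. Peaks named for the pseudogene Eef2-ps2 lay in Pdpn, the podoplanin gene, at 2.09-fold and 2.48-fold in WT and at 4.43-fold and 2.62-fold in KO. A WT peak named for Eif3k lay in Ryr1 with a false discovery rate of 0.225, and a KO peak named for Eif1ad lay in Banf1 at 5.31-fold with a rate of 0.107. A further KO peak, of 5.31-fold and named for Gspt2, lay in the extent of no RefSeq gene.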
